A study of Rattus norvegicus with 20 samples.

Results

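RNA sequencing of the choroid plexus of 4 testosterone-treated obese female Zucker rats (obese + TT) was compared with that of 6 untreated obese female Zucker rats (obese), which together made up 10 of the 20 libraries of the study, each from 1 rat of 16 weeks of age. Zucker rats carry a mutation of the leptin receptor, and rats homozygous for it (fa/fa) overeat on normal chow and become obese. Both obese groups carried it, so the receptor defect was shared and was not compared here. The obese + TT rats had received 1 mg testosterone propionate in sesame oil under the skin, 2 times a week for 4 weeks, and the obese rats had received no injection. No obese rats that received sesame oil alone are among the libraries. Testosterone and injection therefore coincided with the groups, as did cohort (the set of animals that a group is), and they cannot be told apart in this comparison. The labels do not say which rats were raised, collected, extracted or sequenced together. The other 10 libraries came from 6 untreated lean (+/fa) rats (lean) and 4 lean rats injected with sesame oil alone (lean control), which differ from each other by injection and by set of animals without testosterone.

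The genes compared were those with a mean of at least 1 TPM (a transcript level divided by transcript length and scaled to the same total in every library) over the 10 obese libraries. This held for 12089 of the 32883 genes in the files, and 18825 genes were above 0 TPM in at least 1 of the 10 libraries. The 5 genes just inside the threshold had means of 1.0 to 1.003 TPM and the 5 just outside had 0.997 to 0.999 TPM. A gene symbol was at hand for 2567 of the 12089 genes, of which 1714 were called in the comparison below (66.8%), 1035 higher (40.3%) and 679 lower (26.5%). For 2244 of these it came from sheets of the most abundant genes, and for 323 it came only from the lists of genes that the study had itself called changed in these libraries. The latter genes were thus selected for change, and they are marked as such where they are named. The other 9522 genes carry an Ensembl identifier alone, and the genes among them were not analysed here by name.

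The choroid plexus is a frond of tissue in each brain ventricle, made of a single layer of epithelial cells around a core of loose stroma with leaky capillaries, mural cells, fibroblasts and macrophages. Its epithelium secretes cerebrospinal fluid (CSF) by moving sodium, chloride, bicarbonate and water from blood to ventricle, and it makes abundant secreted proteins such as transthyretin. Testosterone, like other steroid hormones, acts largely by changing transcription of its target genes. In bulk tissue, fewer cells of a type and less RNA per cell cannot be told apart.

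The libraries of the groups differed in makeup before any single gene was considered. Ttr, the transthyretin gene and the defining transcript of this epithelium, took 32.3 to 39.3% of all TPM in the obese libraries and 25.8 to 29.5% in the obese + TT libraries, with no overlap. The mean transcript length implied by the FPKM and TPM columns, weighted by abundance, was 832 to 902 bases in the obese and 1026 to 1061 bases in the obese + TT libraries, again with no overlap. The lean and lean control libraries were split in the same way, at 820 to 902 and 1005 to 1086 bases. The part of library makeup in the results below was not tested. The first principal component of log2(TPM + 0.1) held 61.6% of the variance and set the obese libraries (-49.7 to -29.2) apart from the obese + TT libraries (55 to 63.6). The second held 7.39% and set obese rats 11 and 12 (-24.6 and -23.8) apart from obese rats 7 to 10 (3.21 to 16.1), and obese + TT rats 18 (28) and 20 (-21.8) apart from obese + TT rats 17 and 19 (0.221 and 2.04). Among obese libraries, that of rat 10 stood apart for the epithelial transcription factor Otx2, at 7.85 TPM against a group median of 69.7 TPM.

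Most of the choroid plexus transcriptome differed between obese + TT and obese rats. With limma on log2(TPM + 0.1) and Benjamini-Hochberg adjustment over all 12089 genes, 7809 genes (64.6%) had an adjusted p under 0.05. Of these, 5875 were higher in obese + TT (48.6% of the genes tested) and 1934 were lower (16.0%). The median fold change over all genes was 0.27 on the log2 scale. TPM values of a library share a fixed total, so that the lower share of Ttr and other abundant transcripts raises the rest. With a scaling that centres the typical gene instead (median-of-ratios), the median was -0.01, 7742 genes were called (64.0%), and 3852 were higher (31.9%) and 3890 lower (32.2%). The share of calls that were higher thus went from 75.2% to 49.8% with the scaling. In the TPM fit and in this scaling alike, 3852 genes were called higher and 1934 lower, and 5 genes were called higher in TPM and lower with median-of-ratios. The values of the groups did not overlap for 6259 genes (51.8%), of which 4898 (40.5%) were higher and 1361 (11.3%) lower in every obese + TT rat than in every obese rat.

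The step from lean to lean control, which shares no library with the obese rats and holds no testosterone, was set beside the step from obese to obese + TT. Of 11928 genes tested in both, 7834 were called in the lean step (65.7%), 5904 higher (49.5%) and 1930 lower (16.2%), with a median of 0.28. Of the 7741 of these genes called in the obese step, 6636 were called in the same direction in the lean step, which is 85.7% of the obese calls and 84.7% of the lean calls. Together 5164 genes were called higher in both steps and 1472 lower in both, while 2 genes were called higher in the obese step and lower in the lean step and 5 the other way round. Across genes, which are not independent replicates, the fold changes of the steps correlated with r = 0.898, and 89.3% had the same sign. Large falls recurred in the lean step, since 328 of the 337 genes that fell by over 2 on the log2 scale in the obese step were also called lower in the lean step. The same was found for 63 of the 75 genes that rose by over 2.

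**Figure D1:**
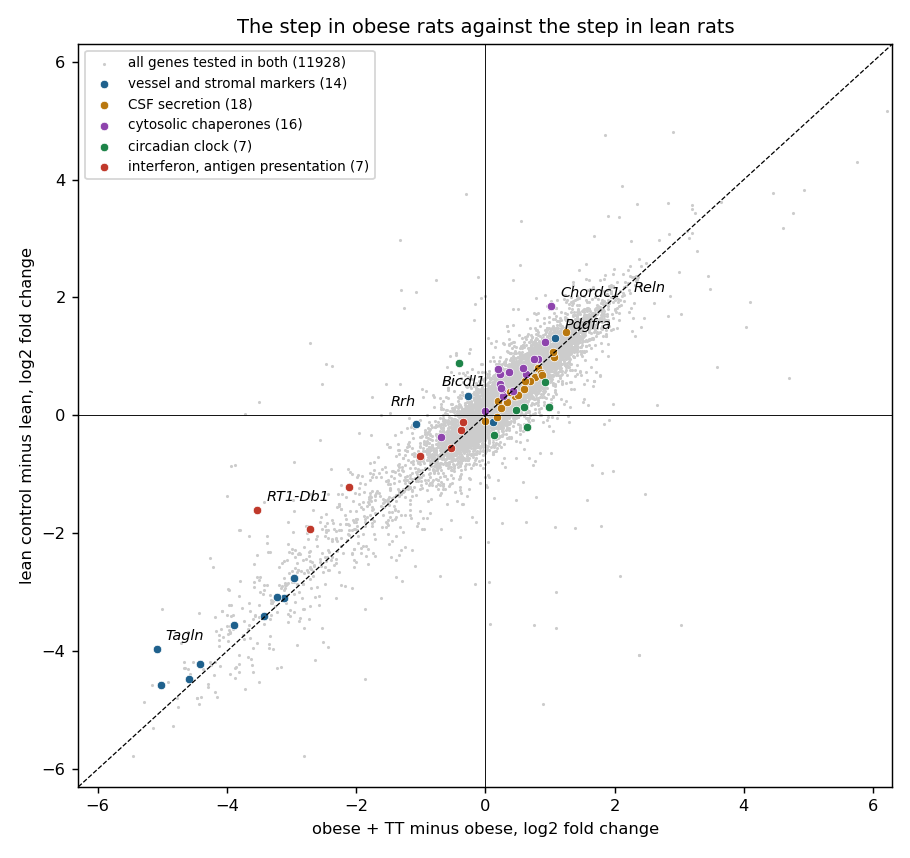
The log2 fold change of each gene in the obese rats (obese + TT minus obese, x axis) is plotted against that in the lean rats (lean control minus lean, y axis), for 11928 genes in grey and for named gene lists in colour, with 6 genes lying outside the plotted range. The points run along the dashed line of equal change (r = 0.898), the vessel and stromal markers sit at the lower left, and the clock genes and RT1-Db1 lie off the line.

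**Figure D2:**
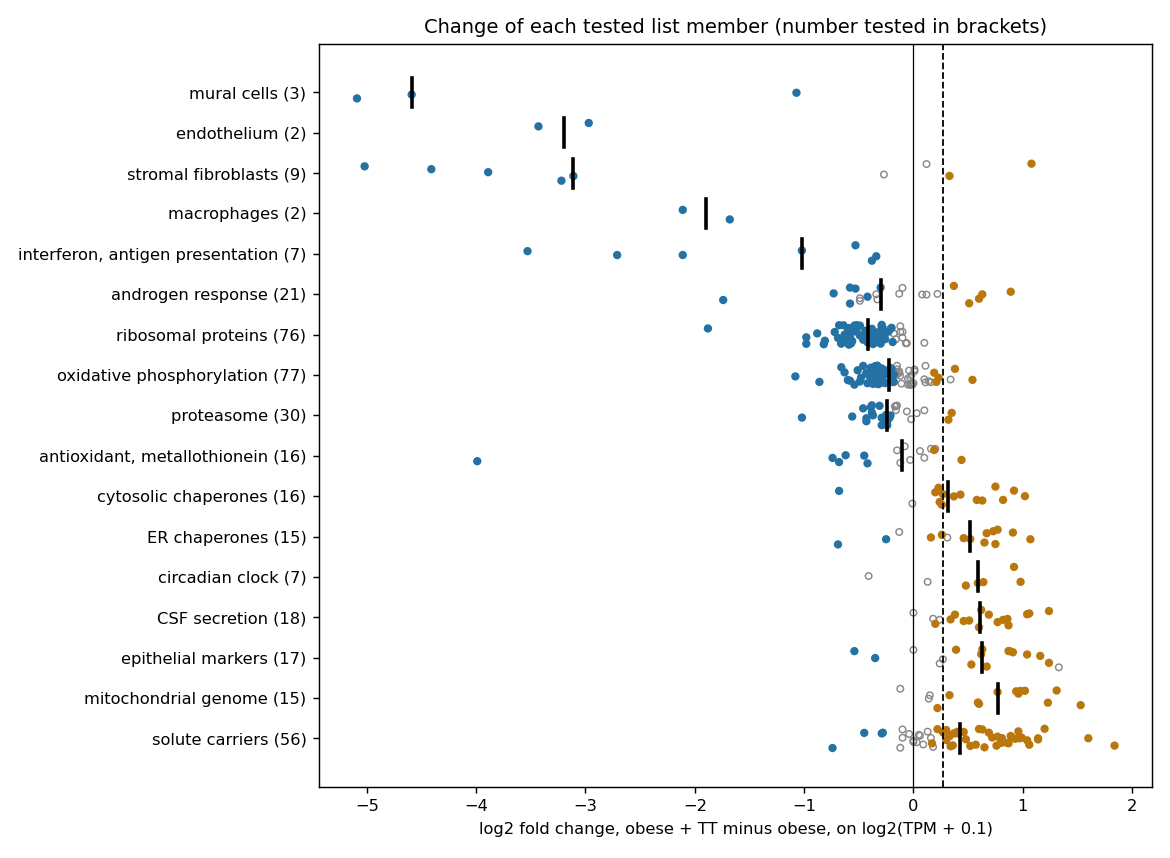
Each point is a tested member of a gene list, placed by its log2 fold change, obese + TT minus obese (x axis). Filled points had an adjusted p under 0.05, orange for higher and blue for lower, open grey points did not, the black bar is the list's median and the dashed line is the median of all genes (0.27). The mural and endothelial markers and 5 of 9 stromal markers lie far to the left, as do Mt2A (-3.99) and RT1-Db1 (-3.53), nearly all ribosomal proteins lie left of 0, and most CSF secretion genes and epithelial markers lie to the right of the dashed line.

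Genes of vessels and stroma were the lowest of the lists in the obese + TT rats, by list median. All 3 mural cell markers and both endothelial markers with a symbol fell, with medians of -4.59 and -3.20 on the log2 scale against 0.27 for all genes. Of 9 fibroblast markers 5 fell, 2 rose and 2 did not pass the test. For comparison, 16.0% of all genes tested fell. The lists held 10 mural, 12 endothelial and 14 fibroblast markers, and those not counted here had no symbol. Of the tested markers 1, 1 and 4 had a symbol only because the study had listed them as changed, so these counts are no independent evidence. The lean step gave list medians of -3.96, -3.08 and -3.08.

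Tagln encodes transgelin, an actin-binding protein of smooth muscle. It was at 48.8, 66.6 and 109 TPM (lowest, median and highest of 6) in the obese rats and at 2.1, 2.52, 1.56 and 1.71 TPM in the 4 obese + TT rats. No obese + TT rat came near the obese range, and the fall was -5.09 ± 0.22 (log2, SE, adjusted p = 9.3e-09 with limma). Rgs5, a regulator of G protein signalling in pericytes, was at 72.6, 97.2 and 122 TPM in obese rats and at 2.75, 4.64, 3.63 and 5.43 TPM in obese + TT rats, a fall of -4.59 ± 0.19. Myh11, the myosin heavy chain of smooth muscle and a gene known here only from the lists of changed genes, fell less, by -1.07 ± 0.18 (adjusted p = 0.000202), from 7.2 to 13.5 TPM in obese rats to 5.34, 4.49, 4.51 and 3.9 TPM. Myh11 changed in the lean step by -0.14 (adjusted p = 0.362), and the difference between the steps had an unadjusted p of 0.000562 and an adjusted p of 0.196 or above for every mural marker.

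Plvap, which forms the diaphragms of the fenestrated capillaries of this tissue, was at 43.4, 46.9 and 60.3 TPM in obese rats and at 4.39, 4.03, 3.46 and 6.74 TPM in obese + TT rats. The groups were far apart, at a log2 fold change of -3.43 ± 0.16 (adjusted p = 2.38e-08). Eng, an endothelial receptor of the TGF-beta family named only from the study's lists, fell by -2.97 ± 0.13. Summed over both endothelial markers, the level was 60.4 to 83.5 TPM in obese and 5.45 to 9.69 TPM in obese + TT libraries. The 3 mural markers summed to 142 to 244 against 9.7 to 11.6 TPM.

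Among genes of the stroma, Mgp, the matrix Gla protein that binds calcium in soft tissue, fell from 486 to 912 TPM (median 705) to 16.2, 25.5, 19.8 and 23.3 TPM, by -5.02 ± 0.17. Dcn, the collagen-binding proteoglycan decorin, fell from 75.5 to 105 TPM to 6.82, 9.19, 8.85 and 13.8 TPM. Dpt (dermatopontin), Col6a1 and Col1a1, all named only from the lists of changed genes, fell by -4.41, -3.89 and -3.11. Col6a1 and Col1a1 passed the filter of 1 TPM only through the obese rats. The stromal list did not move as a whole. Pdgfra, a growth factor receptor of fibroblasts and their precursors, rose from 22.5 to 35.1 TPM to 55.8, 53.2, 68.0 and 64.0 TPM (1.08 ± 0.12, adjusted p = 1.53e-05), and Ogn, osteoglycin, a small leucine-rich proteoglycan of the leptomeninges, rose from 195 to 235 TPM to 260, 247, 258 and 292 TPM (0.33 ± 0.07). With median-of-ratios scaling Pdgfra stayed higher (0.79, adjusted p = 0.000122), while Ogn changed by 0.04 (adjusted p = 0.564). Crabp2, a retinoic acid carrier, and Col6a2 were at 0.12 and -0.27 and did not pass the test. Col6a2 was called lower with median-of-ratios scaling (-0.55, adjusted p = 0.00156), with TPM rescaled without Ttr (-0.43), with FPKM (-0.55) and in the fit of all 20 libraries (-0.27, adjusted p = 0.048).

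Macrophage genes fell as well. Lyz2, the lysozyme of phagocytes, was at 281, 302 and 357 TPM in obese rats and at 74.8, 68.8, 181 and 91.5 TPM in obese + TT rats, of which rat 19 was the highest but still below all obese rats. The change was -1.68 ± 0.22 (adjusted p = 3.16e-05), and -1.29 in the lean step. Only Lyz2 and Cd74 of 14 macrophage markers had a symbol, and they summed to 446 to 546 TPM in obese and 95.2 to 213 TPM in obese + TT libraries. The globins of red blood cells, in contrast, did not pass the test. Hba-a1 was at 2232 to 3831 TPM in obese rats and at 4023, 2641, 4444 and 3110 TPM in obese + TT rats, with Hba-a1, Hba-a2 and Hbb at 0.24, 0.18 and 0.20 on the log2 scale and overlapping groups.

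Markers of other brain cells were few. Map2, a microtubule protein of neurons and the only neuronal marker with a symbol, rose from 17.6 to 41.1 TPM to 77.6, 73.0, 74.8 and 72.3 TPM (1.47 ± 0.19), and rose by 1.44 in the lean step. Gja1, a gap junction protein of astrocytes and other cells, fell by -0.90 ± 0.17 and Glul, glutamine synthetase, was at 0.14 (adjusted p = 0.122, or 0.18 and 0.0389 without obese rat 12). None of the 9 oligodendrocyte markers had a symbol.

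**Figure D3:**
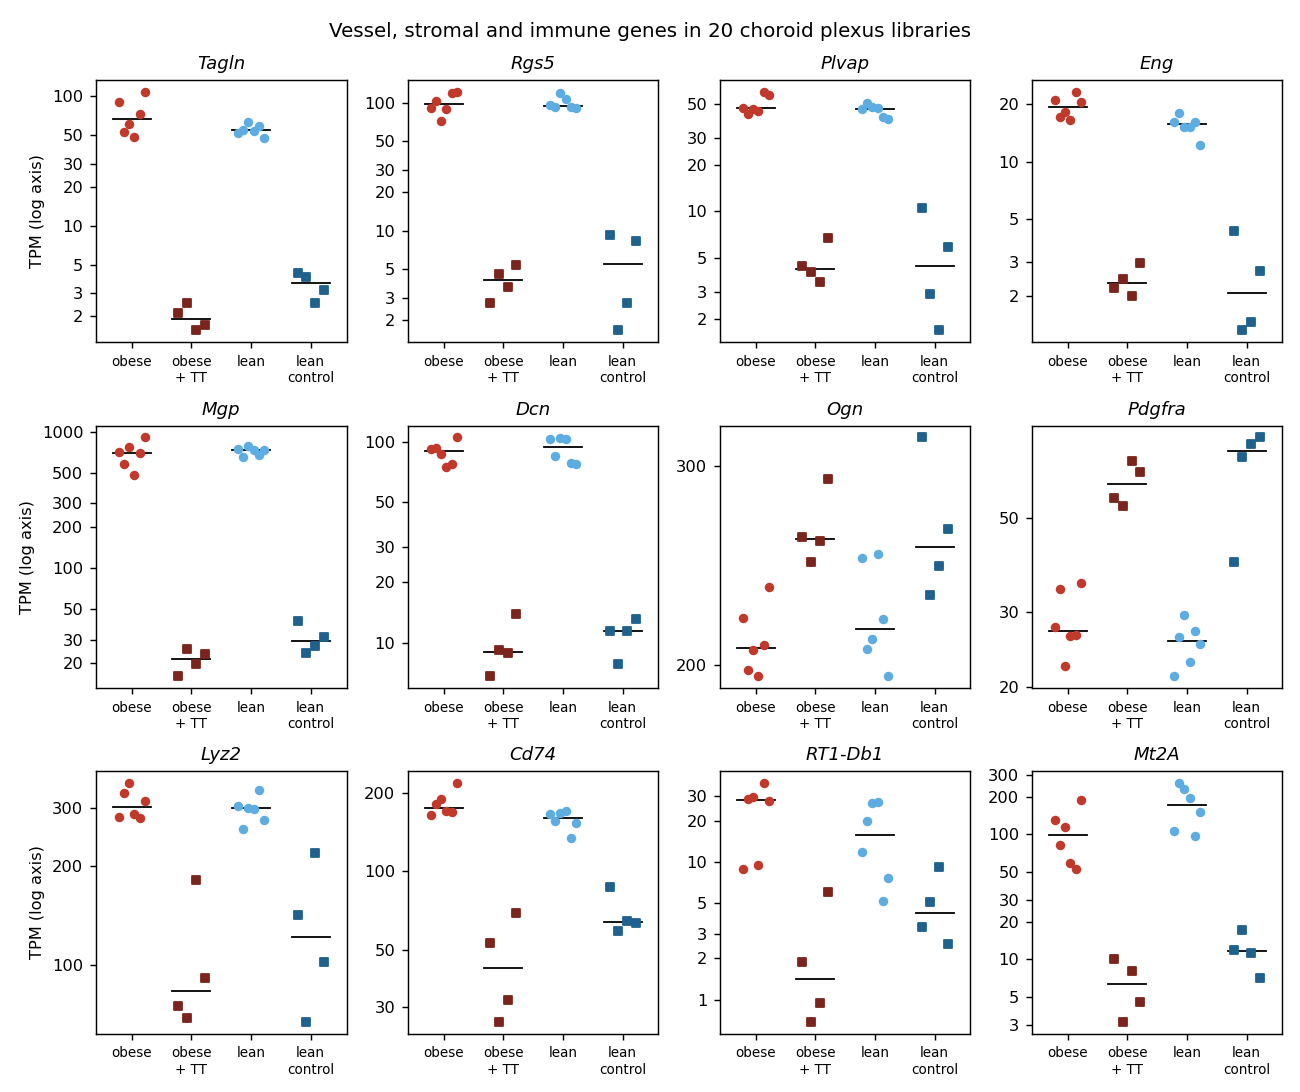
TPM of 12 genes on log axes in each of the 20 libraries, by group, with a black bar at the group median (6 obese, 4 obese + TT, 6 lean, 4 lean control). The medians of 10 genes sit lower in both injected groups than in both uninjected groups, while Ogn and Pdgfra are higher in every obese + TT rat than in every obese rat. Mt2A runs from 52.6 to 187 TPM in obese rats and from 3.16 to 10.0 TPM in obese + TT rats.

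Antigen presentation genes fell in the obese step and, by list median, fell less in the lean step. No difference between the steps passed adjustment. All 7 genes of the interferon and antigen presentation list that had a symbol fell in obese + TT rats, with a median of -1.02. In the lean step 6 of 7 fell, with a median of -0.69. Over all genes 16.0% fell in the obese step and 16.2% in the lean step. Cd74, the invariant chain that loads MHC class II, fell from 165 to 218 TPM to 52.9, 26.4, 32.0 and 68.9 TPM (-2.11 ± 0.22). RT1-Da and RT1-Db1, chains of MHC class II itself, fell by -2.71 ± 0.20 and -3.53 ± 0.57, where obese rats spread from 8.85 to 37.4 TPM of RT1-Db1 and obese + TT rats were at 1.89, 0.69, 0.94 and 6.06 TPM. RT1-Db1 was named only from the study's lists. These 3 genes fell by -1.21, -1.92 and -1.60 in the lean step. The difference between the steps had unadjusted p of 0.00255, 0.00733 and 0.0272 for Cd74, RT1-Da and RT1-Db1, and no gene of the list passed after adjustment (smallest adjusted p = 0.32). Psmb9 of the immunoproteasome, the MHC class I partner B2m, Ifi27 and Bst2 fell by -1.02, -0.38, -0.53 and -0.34, the last not past the threshold without obese + TT rat 17 (-0.28, adjusted p = 0.0522). Cd74 is itself on the macrophage list, where Lyz2 is the only other gene with a symbol. Lyz2 fell in the same libraries, as given above, and the part of macrophages in the fall of MHC class II genes was not tested.

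Among named genes of at least 5 TPM whose groups did not overlap, the 10 largest falls were those of Coch, Tagln, Mgp, Rgs5, Rgcc, Dpt, Mt2A, Igfbp3, RT1-Db1 and Ifitm3. Coch, an extracellular matrix protein known from the inner ear, was at 44.9, 56.8 and 67.2 TPM in obese rats and at 1.08, 1.33, 1.02 and 2.01 TPM in obese + TT rats, which is the largest fall (-5.29 ± 0.18) of these genes. It fell by -4.87 in the lean step. Rgcc, a regulator of the cell cycle expressed in endothelium, Igfbp3, a carrier of insulin-like growth factors, and Ifitm3, an interferon-induced membrane protein that restricts viral entry, fell by -4.47, -3.87 and -3.51, and by -4.79, -4.29 and -3.42 in the lean step.

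The 10 largest rises were led by 3 clone-named genes without a description, AC134224.2, AC134224.1 and AC134224.3, at 3.65, 3.25 and 3.19. AC134224.1 was at 7.86, 9.88 and 17.6 TPM in obese rats and at 116, 74.4, 101 and 141 TPM in obese + TT rats. Their profiles were near-equal, and whether reads were split among them is uncertain. Reln, the secreted glycoprotein reelin that guides neuronal layering, rose from 16.8 to 29.5 TPM to 97.2, 93.1, 115 and 98.6 TPM (2.15 ± 0.15, adjusted p = 5e-07). Pdzd2, a PDZ domain protein named only from the study's lists, rose by 2.30 ± 0.17. These 5 genes rose in the lean step by 3.62, 3.44, 3.57, 1.94 and 1.91. The other 5 of the 10, LOC680227 and the clone-named AABR07039356.2, AABR07015078.2, AABR07000398.1 and AABR07063424.1, rose by 1.94 to 2.04, and by 1.44 to 2.26 in the lean step. AABR07015078.2 was also among the 4 most abundant genes that rose, at 3059 to 4360 TPM in obese rats and at 18027, 13073, 13672 and 17612 TPM in obese + TT rats.

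Genes of CSF secretion rose. Of 18 tested transporters, channels and kinases, 15 rose and none fell, with a median of 0.61 against 0.27 for all genes, of which 48.6% rose. With median-of-ratios scaling 12 rose and 1 fell, against 31.9% and 32.2% of all genes, with a median of 0.32 against -0.01. Of the same 18, 15 rose in the lean step, with a median of 0.51, and none of the 18 had an unadjusted p under 0.05 for the difference between the steps (smallest adjusted p = 0.621). The vessel and macrophage markers with a symbol fell in the same libraries, as given above, and the part of cell makeup in these rises was not tested.

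The sodium pump drives this secretion from the ventricular face of the cells. Its regulatory subunit Atp1b1 was at 856, 957 and 1000 TPM in obese rats and at 1204, 1296, 1358 and 1317 TPM in obese + TT rats, so that every obese + TT rat lay above every obese rat (0.46 ± 0.06, adjusted p = 3.51e-05). Another regulatory subunit, Atp1b2, had the second largest rise of the list after Trpm3, from 74.7 to 97.5 TPM to 179, 169, 184 and 192 TPM (1.06 ± 0.08). Slc12a2, the cotransporter NKCC1 for sodium, potassium and chloride, rose from 205 to 235 TPM to 345, 313, 349 and 366 TPM (0.60 ± 0.06, 0.44 in the lean step). Stk39, the kinase SPAK that activates it, rose by 0.51 ± 0.06 (0.35 in the lean step).

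The 3 bicarbonate transporters of the list that had a symbol all rose. Slc4a5 (NBCe2), which exports bicarbonate with sodium into the ventricle, rose from 290 to 432 TPM to 660, 587, 699 and 661 TPM (0.87 ± 0.10, adjusted p = 1.08e-05). Slc4a2 (AE2), the anion exchanger of the blood side, rose by 0.86 ± 0.09 and Slc4a10 (NCBE), a sodium-driven bicarbonate transporter, by 0.69 ± 0.08. All 3 also rose in the lean step, by 0.69, 0.72 and 0.58. The potassium channel Kcnj13 rose from 466 to 872 TPM to 1207, 1146, 1254 and 1350 TPM (1.04 ± 0.14) and the cation channel Trpm3 rose by 1.24 ± 0.16.

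The 3 members of the list that did not pass the test were Aqp1, Car2 and Kcne2. Aqp1, the water channel of the ventricular membrane, was at 482, 616 and 839 TPM in obese rats and at 746, 715, 779 and 750 TPM in obese + TT rats. All of the obese + TT values lay within the obese range, and the change of 0.24 ± 0.12 did not pass the test (adjusted p = 0.115), although it did without obese rat 7 (0.32, adjusted p = 0.0176). Car2, the carbonic anhydrase that supplies bicarbonate, was at 1205 to 1610 TPM and at 1316, 1345, 1474 and 1473 TPM (0.00 ± 0.09, adjusted p = 0.988). With median-of-ratios scaling Car2 was lower, at -0.29 (adjusted p = 0.0224). Kcne2, a potassium channel subunit, was at 0.18 (adjusted p = 0.0774), or 0.23 without obese rat 11 (adjusted p = 0.024). Slc12a2, Stk39, Slc4a2, Slc4a10, Aqp1 and Kcne2 were chosen after their values were seen.

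**Figure D4:**
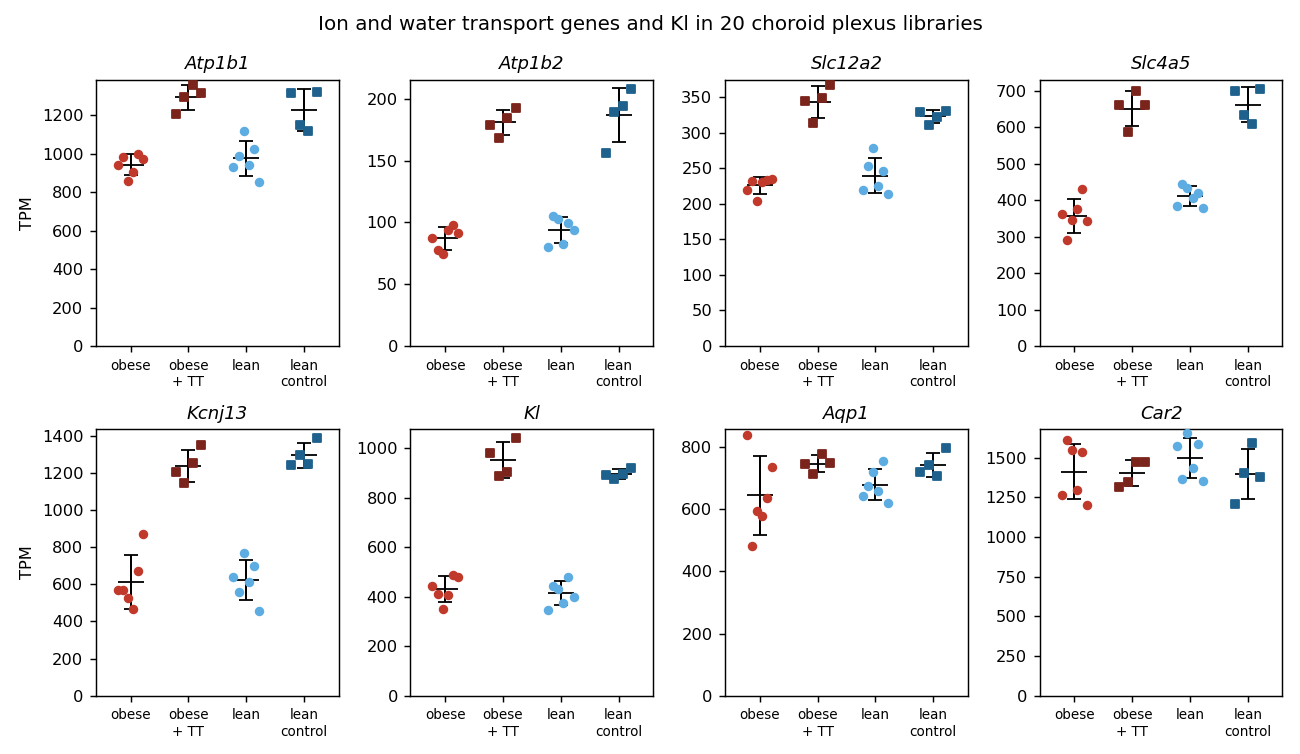
TPM of 7 transport genes and of Kl in each of the 20 libraries, by group, on axes that start at 0, with the group mean and SD in black (n = 6, 4, 6 and 4). For Atp1b1, Atp1b2, Slc12a2, Slc4a5, Kcnj13 and Kl every obese + TT rat lies above every obese rat, while Aqp1 and Car2 overlap.

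Epithelial identity genes mostly rose. Of 17 epithelial markers 11 rose, 2 fell (Ttr and Cldn1) and 4 did not pass the test, against 48.6% higher and 16.0% lower of all genes, with a median of 0.63. With median-of-ratios scaling 10 rose and 3 fell, against 31.9% and 32.2% of all genes, and 13 rose and 3 fell in the lean step. Ttr itself was at 322841, 342179 and 393331 TPM in obese rats and at 265059, 295101, 257742 and 273699 TPM in obese + TT rats (-0.35 ± 0.07, adjusted p = 0.00141), and with no filter on low genes its adjusted p was 0.637. Kl, the coreceptor klotho for fibroblast growth factor 23, rose from 349 to 489 TPM to 982, 887, 903 and 1041 TPM (1.16 ± 0.09), and by 1.12 in the lean step. Htr2c, the serotonin receptor 2C, and Enpp2, the secreted lysophospholipase autotaxin, rose by 0.91 and 0.63. Of the tight junction claudins, Cldn2 rose by 0.53 ± 0.07 and Cldn1 fell by -0.54 ± 0.08, and they kept these directions with median-of-ratios scaling (0.24 and -0.83). Folr1, the folate receptor, rose by 0.39, and by 0.11 with that scaling (adjusted p = 0.12). Otx2 was at 7.85, 69.7 and 85.9 TPM in obese rats and at 111, 107, 115 and 200 TPM in obese + TT rats. Its change of 1.33 ± 0.57 did not pass the test (adjusted p = 0.0552). The 4 obese + TT rats all lay above the obese rats. Without obese rat 10 the change was 0.80 and passed (adjusted p = 0.00179), and without obese rat 12 it was 1.48 (adjusted p = 0.0435). Prlr, the prolactin receptor, was at 101 to 191 TPM in obese rats and at 167, 148, 185 and 184 TPM in obese + TT rats (0.27, adjusted p = 0.146, or 0.36 and 0.0426 without obese rat 11), while in the lean step it rose by 0.79 (unadjusted p of the difference = 0.0261).

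Of 56 solute carriers tested 39 rose and 4 fell (median 0.43), where 48.6% of all genes rose and 16.0% fell. With median-of-ratios scaling the counts were 25 and 12, where the shares over all genes were 31.9% and 32.2%. The largest rises were those of Slc4a8 (1.84), Slc16a6, a carrier of monocarboxylates (1.60), the sulfate transporter Slc13a4 (1.20) and the sodium and calcium exchanger Slc24a4 (1.14). Slc4a8, a sodium-driven bicarbonate exchanger named only from the study's lists, was at 0.3 to 1.13 TPM in obese rats. It passed the filter of 1 TPM only through the obese + TT rats (1.79 to 2.88 TPM), so its rise is no independent evidence. Slc13a4 was at 172 to 222 TPM in obese rats and at 437, 434, 463 and 442 TPM in obese + TT rats. The most abundant carrier that rose, Slc22a17, a receptor for lipocalin 2, rose by 0.34 (0.06 with median-of-ratios scaling, adjusted p = 0.355).

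The 9 genes that the study had singled out in obese + TT against lean control rats all rose against obese rats, where 48.6% of all genes rose. They were chosen on the obese + TT libraries used here, so their direction is not independent evidence. Abca4, a transporter of retinoids, rose from 33.5 to 47.5 TPM to 99.7, 97.2, 103 and 97.0 TPM (1.31 ± 0.09), Ppp1r3b, a glycogen-targeting phosphatase subunit, by 1.15 ± 0.13, Slc16a12, a creatine transporter, by 0.97 ± 0.16, Pld2, phospholipase D2, by 0.75 ± 0.17 and Slc5a5, the iodide cotransporter, by 0.65 ± 0.12. These 5 stayed higher with median-of-ratios scaling and rose in the lean step too, by 1.04, 1.34, 0.69, 0.77 and 0.41. The other 4 rose by less. The kinase Mapk3 (0.22), the calcineurin subunit Ppp3r1 (0.25), the membrane protein Grina (0.24) and Flot2, flotillin 2 (0.32), were at -0.06, -0.04, -0.04 and 0.03 with median-of-ratios scaling, where none was called. They were in the lean step at 0.03, 0.14, 0.15 and 0.06, and none was called. Mapk3 was at 41.5, 50.6 and 53.4 TPM in obese rats and at 59.1, 60.1, 59.6 and 50.3 TPM in obese + TT rats, and its call was lost when obese rat 7 or 10 or obese + TT rat 17, 18 or 19 was left out (adjusted p = 0.0522 to 0.0907). That of Grina was lost without obese + TT rat 18 (adjusted p = 0.0509).

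Genes known as androgen-responsive, mostly from prostate, included genes that rose and genes that fell. Of 21 tested members 5 rose, 7 fell and 9 did not pass the test, against 48.6% higher and 16.0% lower of all genes, with a median of -0.30 against 0.27. With median-of-ratios scaling 4 rose and 13 fell, against 31.9% and 32.2% of all genes, with a median of -0.56 against -0.01. The lean step, which held no testosterone, gave 5 that rose and 7 that fell, with a median of -0.11. Of the 21 genes 2 had an unadjusted p under 0.05 for the difference between the steps, against 8.52% of all genes, and none passed after adjustment (smallest adjusted p = 0.446).

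Igf1, the growth factor, fell from 1.04, 1.4 and 3.45 TPM to 0.91, 0.29, 0.38 and 0.32 TPM (-1.74 ± 0.38, adjusted p = 0.00148) and is named only from the study's lists. It passed the filter of 1 TPM only through the obese rats, so its fall is no independent evidence. Obese + TT rat 17 was the highest of its group and just below the lowest obese rat. Sat1, the enzyme that starts polyamine breakdown, fell by -0.73 ± 0.23 and Odc1, which starts polyamine synthesis, by -0.53 ± 0.13. Acsl3, a fatty acid ligase and a widely used androgen target, rose from 34.7 to 52.7 TPM to 63.8, 62.2, 77.9 and 65.2 TPM (0.63 ± 0.12), and by 0.61 in the lean step (unadjusted p of the difference = 0.914). Ptk2b, a tyrosine kinase named only from the study's lists, rose by 0.89 ± 0.08. Pmepa1 and Sgk1, both induced by androgens in other tissues, were at -0.33 (adjusted p = 0.16) and -0.13 (adjusted p = 0.346), and with median-of-ratios scaling they were lower, at -0.62 and -0.42. Selenop, the selenium carrier, fell by -0.58 ± 0.16 in the obese step and was at 0.30 (adjusted p = 0.284) in the lean step, with an unadjusted p of 0.0105 for the difference. Pmepa1, Sgk1 and Selenop were named after their values were seen.

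Of genes for steroid handling 5 of 30 had a symbol. Hsd17b10, a mitochondrial hydroxysteroid dehydrogenase, fell by -0.37 ± 0.07, from 121 to 149 TPM to 106, 97.3, 111 and 101 TPM. Hsd17b4 rose by 0.20 ± 0.06 (-0.08 with median-of-ratios scaling, not called). Hsd17b12 and the progesterone-binding membrane proteins Pgrmc1 and Pgrmc2 were at -0.07, -0.03 and -0.08 and did not pass the test, and with median-of-ratios scaling all 3 were lower, at -0.35, -0.31 and -0.36. Lepr, the mutated leptin receptor itself, rose from 29.2, 30.9 and 40.3 TPM to 57.4, 53.6, 85.7 and 62.8 TPM (0.94 ± 0.14, adjusted p = 6.91e-05). In the lean step Lepr was at 0.81 (adjusted p = 0.197), a value that rests largely on 1 library. Lean control rat 14 was at 359 TPM and the other lean control rats at 43.1 to 58.8 TPM. Fitted with all 20 libraries the adjusted p of Lepr was 0.0601. A palindromic androgen response element (AGAACA, any 3 bases, then its reverse complement TGTTCT) occurred in none of the promoters found for 18 of the 21 androgen-responsive genes, and in 5 of all 33469 rat promoters of RefSeq (0.0149%, build GRCr8, 250 bases before to 50 after the start). The search covers these letters in these windows only. At so low a share over all promoters, almost any list of this size would hold no match, so the absence says nothing about these genes.

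Of 6 genes of thyroid hormone handling 4 rose and Ttr fell, against 48.6% and 16.0% of all genes. Slco1c1, an organic anion transporter that carries thyroxine, rose from 124, 146 and 169 TPM to between 204 and 242 TPM in the 4 obese + TT rats (0.64 ± 0.09), and by 0.46 in the lean step, and the groups did not overlap. Slc5a5 is given above. The receptor Thra rose by 0.48 (0.19 with median-of-ratios scaling, adjusted p = 0.0573) and Hr, a thyroid-regulated corepressor named only from the study's lists, was at -0.04. Of 10 sterol and lipid genes 3 rose and none fell, a smaller share of rises than the 48.6% of all genes. The list's median was 0.15 against 0.27. With median-of-ratios scaling 2 rose and 2 fell, against 31.9% and 32.2% of all genes. The 3 that rose were Lepr, the desaturase Scd2 (0.88 ± 0.21) and Lpl, lipoprotein lipase (0.48 ± 0.15, called in TPM but not with median-of-ratios, 0.20).

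Of 16 cytosolic chaperones tested 13 rose and 1 fell in the obese step, where 48.6% of all genes rose, and the list's median of 0.32 was close to that of all genes (0.27). In the lean step 14 rose and 1 fell, where 49.5% of all genes rose, with a median of 0.71 against 0.28. With median-of-ratios scaling the median of the obese step was 0.03 against -0.01. Then 7 were higher and 2 lower, against 31.9% and 32.2% of all genes. These proteins fold other proteins, and their genes are switched on by heat shock factor 1, which binds the heat shock element, runs of GAA and its reverse complement TTC in alternation. Its form with 3 alternating units of TTC and GAA, any 2 bases apart, was searched on both strands (it overlaps itself in longer runs) and was present in 0.798% of the 33469 RefSeq promoters and in those of 6 of the 15 list members with a promoter entry. It is printed here from build GRCr8 for these 6 genes, 5' to 3' on the strand of the gene, with the matched element in capitals (for Hspa8 the first of 2 separate matches), because the rises and the 1 fall of the list both occur among them.
Hspa8: gcgagcgtGAAAGTTCCAGAAcgctgcgg
Hsph1: gccgcagaTTCTGGAAAGTTCtcctcagt
Dnaja1: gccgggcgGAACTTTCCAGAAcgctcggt
Chordc1: ccgGAACGTTCGGGAAGATTCCTGAAgca
Hspe1: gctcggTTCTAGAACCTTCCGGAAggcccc
Hspd1: ggggccTTCCGGAAGGTTCTAGAAccgagc
Those of Hspa8 (chr8:50080293-50080321, plus strand), Hsph1 (chr12:10427324-10427352, plus strand) and the pair Hspe1 and Hspd1 (chr9:64084256-64084285) lie before the start of transcription, and those of Dnaja1 (chr5:60638405-60638433, plus strand) and Chordc1 (chr8:23650828-23650856, plus strand) lie just after it. Hspe1 (plus strand) and Hspd1 (minus strand) share 1 promoter, read in opposite directions. A match is a description of the sequence and not a measured binding site.

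Of these genes Chordc1, an HSP90 partner named only from the study's lists, rose from 14.6, 18.4 and 20.5 TPM to 30.5, 34.0, 33.5 and 48.3 TPM (1.02 ± 0.14, adjusted p = 5.19e-05), and by 1.85 in the lean step. The difference of its steps had an unadjusted p of 0.00265. Hsph1, a nucleotide exchange factor of HSP70, rose by 0.92 ± 0.15 and by 1.24 in the lean step, and Hspa8, the constitutive HSP70, by 0.58 ± 0.11 and 0.81. Dnaja1, a cochaperone, rose by 0.23 ± 0.09 (adjusted p = 0.043) and by 0.71 in the lean step (unadjusted p of the difference = 0.00213), and was at -0.05 with median-of-ratios scaling. Its call in the obese step was lost with no filter (adjusted p = 0.0587), with variances fitted without a trend (adjusted p = 0.068) and in 6 of the 10 fits that left out a library, with adjusted p up to 0.154 without obese + TT rat 20.

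The pair that shares a promoter parted. Hspe1, the small cochaperonin HSP10, fell from 488, 609 and 676 TPM to 403, 380, 393 and 337 TPM (-0.68 ± 0.09, adjusted p = 3.49e-05). Hspd1, its large partner HSP60, rose from 102, 109 and 126 TPM to 124, 140, 134 and 141 TPM (0.27 ± 0.07), with 1 obese + TT rat inside the obese range, and was at -0.02 with median-of-ratios scaling. The ratio of Hspe1 to Hspd1 within a library does not depend on the scaling. It was 4.77, 5.34 and 6.35 in obese rats (lowest, median and highest) and 2.39 to 3.24 in obese + TT rats, with no overlap (log2 difference -0.95, exact two-sided permutation p = 0.00952, n = 6 and 4). This is the smallest p that the 210 splits of 4 against 6 can give, and the pair was picked after the values were seen. Groups without overlap always give this p, and 51.8% of all genes had groups without overlap. In lean rats the ratio was 4.96 to 6.82 and in lean control rats 3.03 to 5.32.

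Secreted proteins fold in the endoplasmic reticulum. Of 15 of its chaperones and stress genes tested 11 rose and 2 fell, against 48.6% and 16.0% of all genes (median 0.52), or 9 and 3 with median-of-ratios scaling, against 31.9% and 32.2%, and 12 rose and 1 fell in the lean step. Calr (calreticulin) rose from 385 to 465 TPM to 700, 696, 696 and 720 TPM (0.75 ± 0.06), Hsp90b1 by 0.91 ± 0.07, Hyou1 by 1.07 ± 0.11, Dnajc3 by 0.77 ± 0.06 and the disulfide isomerase Pdia3 by 0.46 ± 0.06. The 2 that fell were Atf4, the transcription factor of the integrated stress response (-0.69), and the secreted factor Manf (-0.25).

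Of 3 metallothioneins tested, small proteins that bind zinc and copper, Mt1 and Mt2A fell and Mt3 was at 0.20 (adjusted p = 0.0508). Mt2A was at 52.6, 98.6 and 187 TPM in obese rats and at 10.0, 3.16, 8.13 and 4.58 TPM in obese + TT rats (-3.99 ± 0.38, adjusted p = 4.65e-06), and fell by -3.82 in the lean step. Mt1 fell from 108 to 212 TPM to 86.7, 92.4, 93.9 and 81.1 TPM (-0.74 ± 0.15), and by -0.90 in the lean step. The groups did not overlap for either gene, although the fall of Mt2A was many times that of its neighbour. Both genes lie on rat chromosome 19 within a few kilobases, and metal-responsive transcription factor 1 is known to switch metallothioneins on through metal response elements. The 250 bases before each start are printed here from RefSeq (GRCr8, minus strand, chr19:10832976-10833225 for Mt1 and chr19:10838709-10838958 for Mt2A), 5' to 3', with matches to the element's core (TGCACNC or TGCGCNC, on either strand) in capitals, as they show where the neighbours differ.
Mt1: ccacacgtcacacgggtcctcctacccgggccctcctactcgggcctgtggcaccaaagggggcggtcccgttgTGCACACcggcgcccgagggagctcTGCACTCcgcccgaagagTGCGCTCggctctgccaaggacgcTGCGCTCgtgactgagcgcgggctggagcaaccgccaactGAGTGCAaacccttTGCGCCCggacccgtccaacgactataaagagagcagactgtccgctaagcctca
Mt2A: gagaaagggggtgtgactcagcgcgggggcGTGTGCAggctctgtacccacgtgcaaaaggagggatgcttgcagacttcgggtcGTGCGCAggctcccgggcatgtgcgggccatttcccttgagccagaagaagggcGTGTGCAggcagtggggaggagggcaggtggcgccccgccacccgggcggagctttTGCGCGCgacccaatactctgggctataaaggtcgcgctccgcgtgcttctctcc
The core matched 6 times before Mt1 and 4 times before Mt2A, and at least once in 24.2% of all RefSeq promoters.

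Among the other antioxidant genes, glutathione peroxidase 4 (Gpx4), which reduces lipid peroxides, fell from 1009 to 1271 TPM to 736, 759, 810 and 723 TPM (-0.62 ± 0.07), superoxide dismutase Sod1 by -0.45 and thioredoxin Txn1 by -0.68. In all 6 of 16 tested members of the list fell and 2 rose, against 16.0% and 48.6% of all genes (12 and 1 with median-of-ratios scaling, against 32.2% and 31.9%), and 7 fell in the lean step.

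Of 20 abundant secreted proteins tested 10 rose and 5 fell, or 8 and 7 with median-of-ratios scaling. Over all genes 48.6% rose and 16.0% fell, or 31.9% and 32.2% with that scaling, so the counts lie near the shares of all genes. The falls were led by Igfbp7, a binding protein of growth factors found in vessels (-1.75 ± 0.08, from 192 to 237 TPM to 70.0, 68.5, 67.5 and 56.4 TPM), and Apoe, the lipid carrier apolipoprotein E (-1.26 ± 0.17). Cst3, the protease inhibitor cystatin C and the most abundant gene after Ttr among those that fell, went from 35881, 40005 and 41963 TPM to 28501, 29468, 29870 and 28311 TPM (-0.45 ± 0.06). The rises were led by Bmp7 (0.89 ± 0.10), a bone morphogenetic protein, and Sostdc1 (0.88 ± 0.10), an antagonist of such proteins, at 669 to 932 TPM in obese rats and at 1405, 1469, 1500 and 1422 TPM in obese + TT rats. Tf, the iron carrier transferrin, and Igf2 rose by 0.62 and 0.53.

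Of 76 ribosomal protein genes 65 fell, 11 did not pass the test and none rose, where 16.0% of all genes fell (median -0.42), and 58 of 76 fell in the lean step (median -0.35). With median-of-ratios scaling 75 of 76 fell, against 32.2% of all genes. Their levels summed to 48467 to 60270 TPM in obese libraries and 40022 to 42370 TPM in obese + TT libraries. Cst3, Cox8a and Bsg, the carrier chaperone basigin, were with Ttr the 4 most abundant genes that fell, Bsg by -0.22 ± 0.06. Rps16 fell from 1550 to 1958 TPM to 916, 1001, 992 and 864 TPM (-0.88 ± 0.07), and Rpl41, the most abundant, was at -0.06 (adjusted p = 0.471), and at -0.35 with median-of-ratios scaling (adjusted p = 0.00301). Ribosomal protein genes have many processed copies in the genome, so single values are uncertain. The 2 Ensembl genes with the symbol Rps19l2 were at -1.88 and -0.07. Of 77 nuclear genes of oxidative phosphorylation 45 fell and 5 rose, against 16.0% and 48.6% of all genes. With median-of-ratios scaling 67 fell and 1 rose, against 32.2% and 31.9%. In the TPM fit Cox6a1 was at -0.63 and Cox8a at -0.54. The 2 Ensembl genes with the symbol Uqcrb, of complex III, parted, at -1.08 ± 0.07 (ENSRNOG00000032204) and 0.54 ± 0.08 (ENSRNOG00000024967), and how reads were split between them is uncertain. The ATP synthase subunit Atp5me rose by 0.38 (0.09 with median-of-ratios scaling, not called). Of 30 proteasome genes 20 fell, 2 rose and 8 did not pass the test, against 16.0% lower and 48.6% higher of all genes. Beside Psmb9, Psmb6, Psma7, Psma5 and Psmb1 fell by -0.56, -0.46, -0.43 and -0.31. The longer implied mean transcript length of the obese + TT libraries, given above, moved with these lists, and its part in them was not tested.

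Most transcripts of the mitochondrial genome rose. Of 15 tested 12 rose and none fell, against 48.6% and 16.0% of all genes (median 0.77), or 10 and 1 with median-of-ratios scaling, and 10 rose and 2 fell in the lean step. Their sum was 78179 to 87188 TPM in obese and 98307 to 114521 TPM in obese + TT libraries. Mt-nd5 and Mt-nd4, subunits of complex I, rose by 1.31 ± 0.09 and 1.02 ± 0.07, the former from 720 to 962 TPM to 2154, 1900, 2189 and 2372 TPM. Mt-atp6, Mt-cyb and Mt-co3, among the most abundant genes that rose, rose by 0.60, 0.59 and 0.33, the last of which was 0.05 with median-of-ratios scaling (adjusted p = 0.712). Mt-co1 was at -0.12 (adjusted p = 0.0596, or -0.16 and 0.0236 without obese + TT rat 20), and at -0.41 with that scaling. Of 14 genes of the vacuolar proton pump 3 rose, among them Atp6v0a2 (0.74) and Atp6v1a (0.56), and 6 fell, such as Atp6v1f (-0.40), or 2 and 10 with median-of-ratios scaling. The shares over all genes were 48.6% and 16.0%, or 31.9% and 32.2% with that scaling.

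Smaller lists gave the following. Of 9 collagens, 3 rose and 2 fell in the obese step (1 and 5 with median-of-ratios scaling), and 7 rose and 2 fell in the lean step. The shares over all genes were 48.6% and 16.0% (31.9% and 32.2% with that scaling), and 49.5% and 16.2% in the lean step. Col27a1, a fibrillar collagen of cartilage, rose from 8.44 to 23 TPM to 34, 23.5, 35.4 and 41.4 TPM (1.36, and 2.26 in the lean step), and Col8a1 and Col9a3 rose by 0.70 and 0.31 with overlapping groups. Of 7 cilia genes 3 rose and none fell, against 48.6% and 16.0% of all genes, or 2 and 3 with median-of-ratios scaling, against 31.9% and 32.2%. Those that rose were the radial spoke gene Rsph4a (0.65) and the tubulins Tubb4b (0.62) and Tuba1a (0.34, or 0.05 with median-of-ratios scaling). Of 2 ependymal genes Pltp, the phospholipid transfer protein, rose by 0.65 and Dynlrb2, a dynein light chain, was at -0.13 (adjusted p = 0.181), but was called lower with TPM rescaled without Ttr (-0.28, adjusted p = 0.00205), median-of-ratios (-0.41, adjusted p = 0.000951) and FPKM (-0.40). Of 2 immediate early genes the AP-1 subunit Jund fell by -0.41 and Ier5, named only from the study's lists, rose by 0.41 (0.13 with median-of-ratios scaling, adjusted p = 0.282), and they changed by -0.72 and 0.85 in the lean step.

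The difference between the obese step and the lean step is the contrast in which a testosterone effect could appear apart from injection and cohort, although it also holds any way in which obese rats respond to injection or cohort unlike lean rats. With limma over 12014 genes and all 20 libraries, 1 gene (0.00832%) had an adjusted p under 0.05, and 1023 genes (8.52%) had an unadjusted p under 0.05, of which 450 (3.75%) were higher and 573 (4.77%) lower in the obese step. The median absolute difference was 0.13 and the median SE was 0.16. The gene was Bicdl1, a coiled-coil adaptor of dynein and kinesin motors that is named only from the study's lists. It was at 19.1, 23.7 and 27.5 TPM in obese rats and at 15.5, 13.3, 14.6 and 10.1 TPM in obese + TT rats, with no overlap (-0.81 ± 0.14). In the lean step it rose by 0.34 (adjusted p = 0.0165), and the difference was -1.15 (adjusted p = 0.0472). This call was lost in 12 of 20 fits that left out a library, with adjusted p up to 0.204 without lean control rat 14. The next smallest adjusted p was 0.125.

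Of the 10 called genes ranked first by the p of that difference, 4 had a symbol only from the study's lists of changed genes, 3 carry an identifier alone and 1 is a mitochondrial transcript. Rrh, a retinal-binding opsin named from those lists, fell from 4.63, 8.21 and 11.3 TPM to 2.88, 1.97, 2.91 and 2.37 TPM (-1.61 ± 0.21, adjusted p = 3.83e-05), and was at 0.00 in the lean step (unadjusted p of the difference = 0.000128). Nphs1, nephrin, fell by -0.55 and rose by 1.01 in the lean step (unadjusted p = 3.38e-05), with overlapping obese groups and no call in the obese step without obese + TT rat 17 or 18 (adjusted p = 0.0742 and 0.0506). Fhod3, an actin-binding formin, rose by 0.90 ± 0.11, from 4.85 to 7.16 TPM to 12.3, 11.6, 11.2 and 11.4 TPM, and was at 0.18 in the lean step (adjusted p = 0.119, unadjusted p of the difference = 0.000102). Adamtsl4, an extracellular matrix protein of microfibrils, rose in both steps, by 0.38 and 1.06, but its obese step was not called with TPM rescaled without Ttr (0.22, adjusted p = 0.0615), median-of-ratios (0.10, adjusted p = 0.336) or FPKM (0.10). LOC103693375 was at -0.36 and 0.40. Nphs1 and Fhod3 are also from those lists.

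Several clock genes rose in the obese step. The circadian clock is a loop of transcription factors in which Arntl and its partner drive Cry2, Nr1d2, Dbp and Bhlhe41, some of whose products then repress it. Of 23 listed clock genes 7 had a symbol and were tested. Of 7 tested members 5 rose and 2 did not pass the test, where 48.6% of all genes rose (median 0.59). With median-of-ratios scaling 3 rose and none fell, against 31.9% and 32.2% of all genes. The lean step gave 2 that rose and 1 that fell, where 49.5% and 16.2% of all genes did (median 0.14). All 7 had an unadjusted p under 0.05 for the difference between the steps, against 8.52% of all genes, and none passed after adjustment (smallest adjusted p = 0.305). Of the 7 genes 5 had a symbol only because the study had listed them as changed, so the count is no independent evidence. The time of day at which each tissue was taken is not given in the sources used here.

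Dbp, a D-box transcription factor with a strong daily rhythm, was at 63.1, 102 and 121 TPM in obese rats and at 135, 175, 166 and 128 TPM in obese + TT rats (0.64 ± 0.16, adjusted p = 0.00423). In the lean step it was at -0.19 (adjusted p = 0.52, unadjusted p of the difference = 0.0176). Bhlhe41, a repressor of the loop, rose from 9.06, 12.6 and 14.7 TPM to 24.2, 25.6, 26.9 and 20.3 TPM (0.98 ± 0.13) and was at 0.14 in the lean step (unadjusted p of the difference = 0.00221). Cry2, Nr1d2 and Usp2 rose by 0.59, 0.92 and 0.48. Arntl, at 0.99 to 2.35 TPM in obese rats and at 1.06, 0.79, 1.11 and 1.35 TPM in obese + TT rats, was at -0.41 (adjusted p = 0.202) and rose by 0.89 in the lean step. Wee1, a cell cycle kinase under clock control, was at 0.13 (adjusted p = 0.428). The groups did not overlap for Dbp, Bhlhe41, Cry2 and Nr1d2, and they did for Usp2, Arntl and Wee1. With median-of-ratios scaling Bhlhe41, Nr1d2 and Cry2 stayed higher, and Dbp (0.36) and Usp2 (0.20) were not called.

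**Figure D5:**
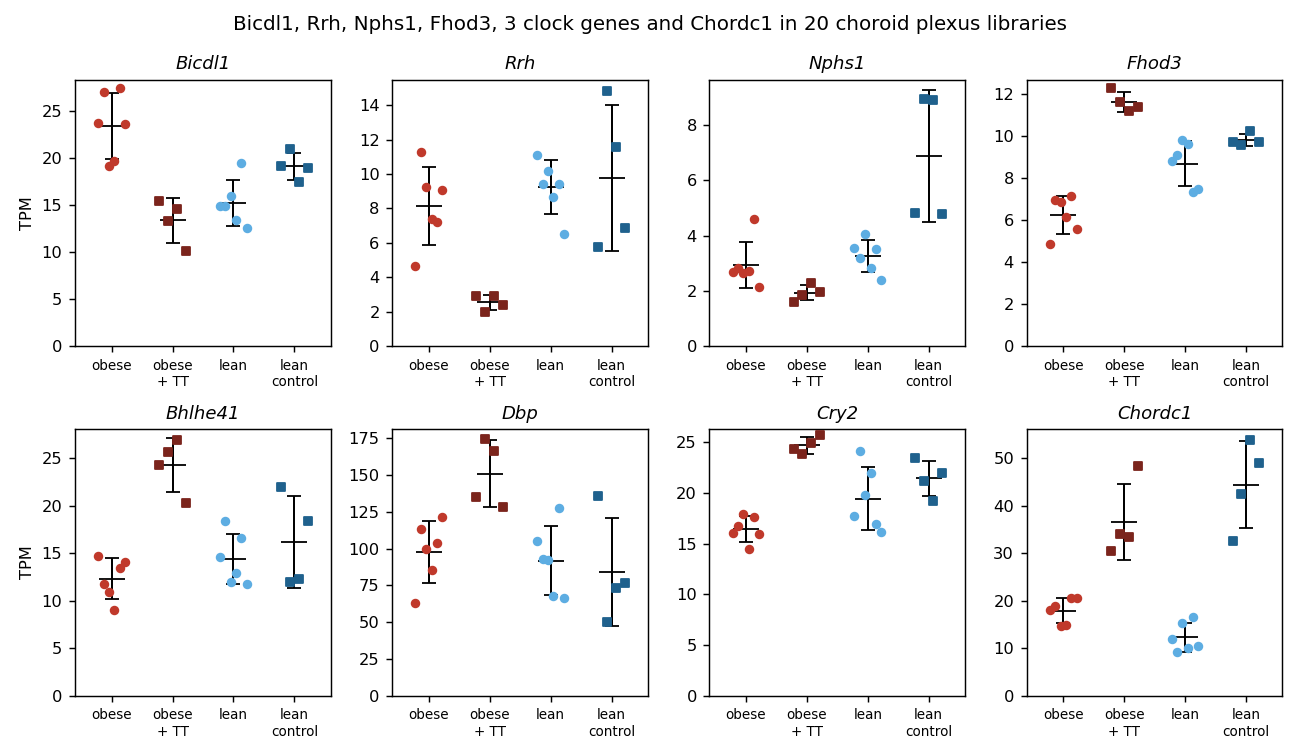
TPM of 8 genes in each of the 20 libraries, by group, on axes that start at 0, with the group mean and SD in black (n = 6, 4, 6 and 4). Bicdl1 and Rrh are lower in every obese + TT rat than in every obese rat, and lean and lean control rats overlap for both. Bhlhe41, Dbp and Cry2 are higher in every obese + TT rat than in every obese rat, and Chordc1 is higher in both injected groups.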

How the data were processed

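The deposited file of each library gives TPM and FPKM values per Ensembl gene, made by the authors from paired-end reads (per the submitters' processing notes with STAR 2.7.9a and RSEM 1.3.3 on Rnor_6.0). The TPM values sum to the same total in every library, so the depth of a library is unknown, as whole reads could not be recovered from the values, and no count test was possible. The FPKM values, as deposited, served for an alternative scaling and for the implied mean transcript length. The fit compared log2(TPM + 0.1) between 4 obese + TT and 6 obese libraries for the genes above the 1 TPM threshold, with limma 3.58.1 in R 4.3.3 (trended variance, Benjamini-Hochberg, adjusted p under 0.05). Fold changes on this scale understate the change of low genes. The lean step was fitted in the same way and the difference of steps as an interaction over 20 libraries. The fit was tested on simulated data. The libraries are labelled as separate rats, and no pair within a group shared over 1.92% identical values.

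Gene lists (31 in all) and the rule for named genes, and the comparison itself, were chosen with earlier results of these data known. Named by the rule were, per list, the 4 called members with the largest change and the 2 most abundant, lists of under 10 members in full, the 10 largest rises and falls of at least 5 TPM without overlap, the 10 called genes ranked first by the p of the difference of steps, and the 4 most abundant called genes in each direction. Symbols came from the study's supplementary sheets, and promoter sequences from RefSeq (GRCr8). Alternatives were pseudocounts of 1 and 0.01, filters of 0.1, 5 and none, other variance options, 3 scalings, a fit of all 20 libraries and leaving out each library. Androgen measurements and fluid physiology of the study were not used here. Some genes are not reported here.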

Additional observations from a re-analysis of the deposited data

Results flagged for a closer look

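Among 328 groups of values (164 genes named in the text, in obese and in obese + TT rats), 24 held a library far from the others of its group by Dixon's criterion, which is 7.32%, where chance gives about 1 in 20. Of these, 7 were on obese + TT rat 20, which was high for Otx2 (200 TPM), Col1a1 (1.47 TPM) and Usp2 (68.6 TPM) and low for Mapk3 (50.3 TPM), Cox8a (1982 TPM), Psma7 (132 TPM) and Jund (48.9 TPM). Obese + TT rat 19 was low for Igfbp3 (2.67 TPM) and high for Ifitm3 (12.8 TPM), rat 18 was high for Flot2 (57.4 TPM) and low for Atp6v0a2 (58.1 TPM), and rat 17 was high for Igf1 (0.91 TPM).

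Obese rat 10 was low for Otx2 (7.85 TPM), Folr1 (970 TPM) and Pgrmc1 (278 TPM). Obese rat 11 was high for Pld2 (32.8 TPM), Slc5a5 (70.6 TPM), Pgrmc2 (99.9 TPM) and Nphs1 (4.58 TPM), rat 12 for Usp2 (63.3 TPM), Apoe (381 TPM) and AC134224.2 (10.9 TPM), and rat 7 for Sat1 (134 TPM) and Pmepa1 (125 TPM).

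Bicdl1 differed between the obese step and the lean step by -1.15 on the log2 scale (limma interaction, adjusted p = 0.0472), lower in 4 of 4 obese + TT rats than in any obese rat.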

How the results depend on the processing

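The total of genes called in the obese step ran from 7253 to 7845 when each library was left out in turn, and that of the lean step from 7229 to 7844. The directions depended on the scaling. Genes called higher in the obese step numbered 3852 with median-of-ratios scaling and 3859 with FPKM, and genes called lower 3890 and 3763, and 2963 with TPM rescaled without Ttr. In the lean step median-of-ratios scaling gave 3924 higher and 4051 lower. The difference of steps gave 2 genes with median-of-ratios scaling (Bicdl1 and Adamtsl4) and 0 to 13 when a library was left out, with 13 without lean control rat 13, 3 without obese + TT rat 20, and 2 without lean rat 6 or lean control rat 15. It gave 0 without lean rat 1, 2, 3 or 4, obese rat 7, 8, 11 or 12, lean control rat 14 or 16, or obese + TT rat 18 or 19. With minimum means of 0.1 and 5 TPM and with no filter the obese step called 8941, 5821 and 9130 genes, as more or fewer were tested.

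Of 164 genes followed under 21 settings, 126 kept direction and call in all. Leaving out a library reversed no called gene, ended calls of 5 genes (Mapk3, Dnaja1, Grina, Nphs1 and Bst2) and added calls of 6. With median-of-ratios scaling and with FPKM, Car2 was at -0.29 and -0.28, Mapk3 at -0.06 and -0.05, Ppp3r1 at -0.04 and -0.03, Grina at -0.04 and -0.03, Hsd17b4 at -0.08 and -0.07, Hspd1 at -0.02 and -0.01, and Dnaja1 at -0.05 and -0.05. With no filter the calls of Ttr, Cst3, Mt-co3 and Dnaja1 were lost, and that of Dnaja1 also with variances fitted without a trend. No paired analysis was possible because the groups share no replicate numbers. Depth is unknown, so no counting error could be given.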
